A study of Homo sapiens with 8 samples.

Results

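The 10 genes EXOSC1 to EXOSC10, which encode the core of the human RNA exosome and its nuclear exonuclease, were followed in 8 libraries of transcript 3′ ends. They were picked out by these gene names among 78932 genes in the deposited tables, and all 10 were among the 12618 genes with enough counts to be tested. The cells were HCT116, an established human colorectal cancer line, carrying a degradation tag on NUDT21, which encodes the smaller protein of cleavage factor Im (CFIm). CFIm binds UGUA in new transcripts, ahead of the poly(A) site, and takes part in the choice of that site. JTE-607 was given together with DMSO for 4 libraries and together with dTAGV1 for the other 4. It is known as an inhibitor of CPSF73, the nuclease that cuts pre-mRNA at poly(A) sites, and both groups received it. Cleavage itself was not measured here. dTAGV1 is a degrader of tagged proteins, with DMSO as the solvent control. Doses, times, the number of clones and the making of the tagged line are not given in the sources used here, and neither is whether the replicates came from separate cultures. P-values therefore measure only the spread between these libraries, which may be technical. No library without JTE-607 was analysed here.

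The RNA exosome degrades RNA from its 3′ end, and trims ribosomal, small nuclear and small nucleolar RNA precursors in the nucleus. Its core is a barrel: a ring of the 6 subunits EXOSC4 to EXOSC9, related to the bacterial enzyme RNase PH, carries a cap of the 3 RNA-binding subunits EXOSC1, EXOSC2 and EXOSC3. In human cells the barrel itself does not cut RNA. Activity comes from nucleases that dock on it: EXOSC10 in the nucleus and nucleolus, DIS3 mainly in the nucleoplasm, and DIS3L in the cytoplasm. Helicase-containing adaptors deliver the substrates, with MTREX in the nucleus and the SKI complex in the cytoplasm.

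The assay reads RNA next to the poly(A) tail, so the annotated ends of the subunit transcripts are shown first. Each line gives the last 30 bases, written as DNA 5′ to 3′, of 1 protein-coding transcript per gene in GENCODE 29 on GRCh38. Capitals mark the poly(A) signals AATAAA and ATTAAA, the hexamers recognised by the cleavage complex, and TGTA, the letters that CFIm binds. EXOSC4 is not shown.
EXOSC1, chr10:97436142-97436171, minus strand: tgctatgataaaacttttttactaaaagga
EXOSC2, chr9:130704832-130704861, plus strand: taaaaagacgccagagttctcgctgaagaa
EXOSC3, chr9:37779714-37779743, minus strand: tatagaactctatttgttgataaagaccaa
EXOSC5, chr19:41386374-41386403, minus strand: tggatgaatcAATAAAttaattcactttaa
EXOSC6, chr16:70246778-70246807, minus strand: gaaAATAAActatttcattgttgtcagaaa
EXOSC7, chr3:45011441-45011470, plus strand: tacaTGTAaaATTAAAggctattttctggt
EXOSC8, chr13:37009372-37009401, plus strand: aAATAAAtatcaaactacattcttctgaaa
EXOSC9, chr4:121816880-121816909, plus strand: atataactATTAAAagggatatttattcca
EXOSC10, chr1:11066618-11066647, minus strand: tttaaaccATTAAAattcttcctgaagaaa

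AATAAA stood in the ends of EXOSC5, EXOSC6 and EXOSC8, and ATTAAA in those of EXOSC7, EXOSC9 and EXOSC10. Neither hexamer stood in the ends of the cap genes EXOSC1, EXOSC2 and EXOSC3. Over 10632 tested protein-coding genes, 54.1% had AATAAA in the last 30 bases and another 13.5% had ATTAAA without it. EXOSC6 was set apart by its structure: it has 1 exon, as did 1.87% of these genes, and a 3′ UTR of 4304 bases, which 9.90% of genes exceeded. Its 3′ UTR held 28 copies of TGTA, and none of them lay in its last 100 bases. That is 6.51 per kb, which 34.7% of genes exceeded, beside a median of 5.11 per kb. The 3′ UTRs of EXOSC7, EXOSC8, EXOSC9 and EXOSC10 were 131, 102, 53 and 100 bases long. EXOSC7, EXOSC8 and EXOSC9 had 2 copies of TGTA in the last 100 bases and EXOSC10 had 1, where 55.5% of genes had at least 1. These are matches of letters in 1 annotated transcript per gene, and the poly(A) sites used in these cells were not analysed here.

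Libraries held 3447842 to 4291256 reads counted to genes on the sense strand, of which 1380 to 2248 fell on the 10 exosome genes. A single gene of the 10 had 7 to 416 reads in a library. NUDT21, the tagged gene, measured 32.2 ± 2.81 CPM with DMSO and 8.25 ± 2.62 CPM with dTAGV1 (counts per 1000000 after TMM scaling, mean ± SD, n = 4 each). Protein, on which the tag acts, was not measured. Of 7 epithelial markers, EPCAM, CDH1, KRT8, KRT18 and KRT19 were well detected, CDX1 had no read and VIL1 stayed under 1 CPM on average. Their summed level was 1542 to 1787 CPM with DMSO and 1224 to 1322 CPM with dTAGV1. They did not move together: KRT18 and KRT19 fell, with log2 fold changes of -0.60 and -0.65, EPCAM rose, with 0.28, and CDH1 at 0.02 and KRT8 at -0.38 did not pass (edgeR, Benjamini-Hochberg adjusted p under 0.05). The 10 markers of blood, endothelium, fibroblasts, liver and neurons summed to 18.8 to 23.5 CPM with DMSO and 12.4 to 17.3 CPM with dTAGV1. Most of it was COL1A1, and DCN and ALB had no read. The neuronal marker SNAP25 had too few counts for the test. It averaged 2.15 CPM with DMSO and 0.34 CPM with dTAGV1, and the groups did not overlap. The part of these marker shifts in the results below was not tested.

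Upon dTAGV1, 6 of the 10 exosome genes fell and none rose, by the edgeR quasi-likelihood test at a Benjamini-Hochberg adjusted p under 0.05. The genes that fell were EXOSC6 (to 0.445 of the DMSO level), EXOSC9 (0.663), EXOSC2 (0.715), EXOSC7 (0.768), EXOSC5 (0.770) and EXOSC10 (0.804). EXOSC1, EXOSC3, EXOSC4 and EXOSC8 did not pass the test. Over all tested genes 57.9% passed in either direction, 28.5% lower and 29.4% higher, so that passing was as common among all genes as among the exosome genes. The median log2 fold change of the 10 was -0.35, beside 0.01 over all tested genes. CPM ranges of the groups were apart for 4 of the 10 genes, where 50.9% of all tested genes had no overlap. In bulk RNA, fewer cells of a kind and less RNA per cell cannot be told apart.

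**Figure D1:**
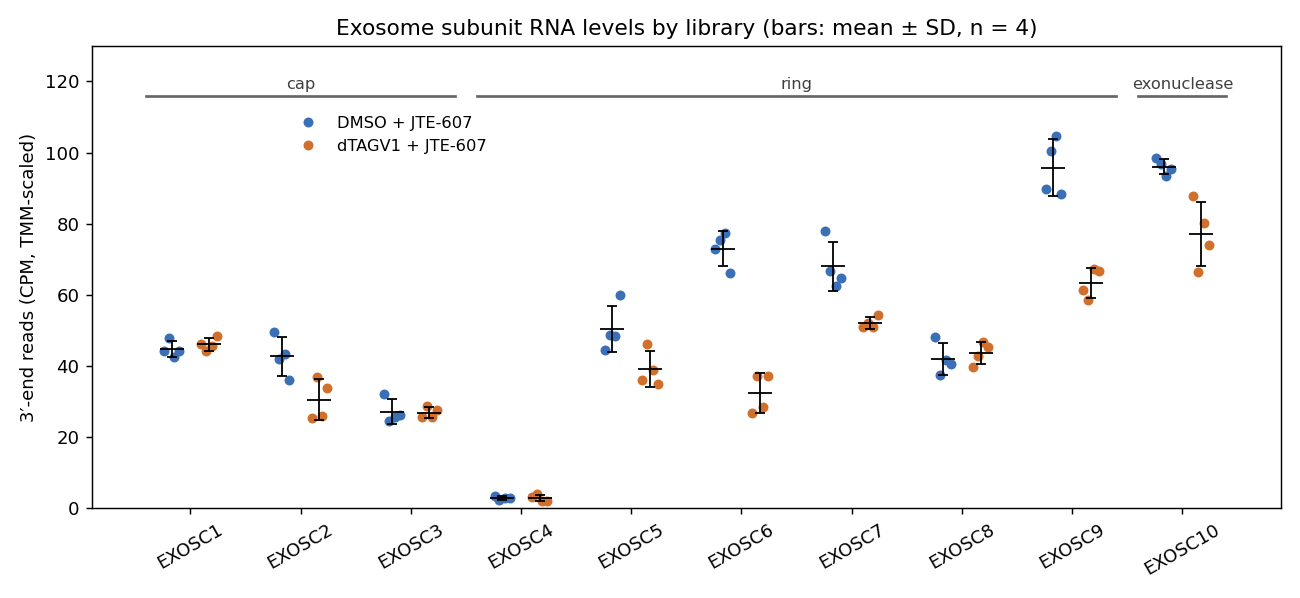
Level of each exosome gene in each library, in counts per 1000000 (CPM) after TMM scaling, with the 4 DMSO libraries in blue and the 4 dTAGV1 libraries in orange; black marks give the mean and SD. The 2 colours are fully apart for EXOSC6, EXOSC7, EXOSC9 and EXOSC10, and they overlap for the other genes.

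The summed level of the 10 genes was 561, 542, 542 and 524 CPM in the 4 DMSO libraries (replicates 1 to 4) and 402, 417, 412 and 425 CPM in the dTAGV1 libraries (replicates 1 to 4). Every dTAGV1 library thus lay below every DMSO library. The ring genes summed to 332 ± 7.00 CPM with DMSO and 233 ± 10.9 CPM with dTAGV1, and the cap genes to 115 ± 8.23 and 103 ± 7.36 CPM (SD, n = 4 per group). The cap sums overlapped between the groups, at 107 to 126 CPM with DMSO and 96.9 to 110 CPM with dTAGV1, while the ring sums did not.

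Among the ring genes, EXOSC6 changed most (ENSG00000223496; GRCh38 chromosome 16, 70246778 to 70251930, minus strand, protein-coding). It encodes the RNase PH-like subunit also called MTR3. Its level was 73.0, 75.5, 77.4 and 66.0 CPM in the 4 DMSO libraries (replicates 1 to 4) and 26.6, 37.2, 28.6 and 37.1 CPM in the dTAGV1 libraries (replicates 1 to 4). The highest dTAGV1 library thus stood well under the lowest DMSO library. The fit gave a log2 fold change of -1.17 ± 0.11 (SE, standard error; edgeR, Benjamini-Hochberg adjusted p = 3.50e-09), and its 95% interval ran from -1.40 to -0.93. EXOSC6 was the 1 gene of the 10 that passed the threshold with a decrease beyond 2-fold, as did 9.23% of all tested genes. Of all tested genes, 7.01% had a log2 fold change as low or lower.

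EXOSC9 (ENSG00000123737; chromosome 4, 121801317 to 121817021, plus strand, protein-coding) encodes the ring subunit RRP45, known as the autoantigen PM/Scl-75. It measured 89.9, 100 and 105 CPM in DMSO replicates 1 to 3 and 88.3 CPM in replicate 4. With dTAGV1 it measured 61.2, 58.6, 67.2 and 66.7 CPM, so the groups were separated by a wide gap. edgeR estimated a log2 fold change of -0.59 ± 0.09 (SE; edgeR, Benjamini-Hochberg adjusted p = 4.39e-06).

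EXOSC7 (ENSG00000075914; chromosome 3, 44975241 to 45036066, plus strand, protein-coding) encodes RRP42. Its level was 77.9, 66.8, 62.4 and 64.8 CPM with DMSO, and 51.0, 52.0, 51.0 and 54.4 CPM with dTAGV1. The dTAGV1 libraries lay close together, all below the DMSO libraries. In log2 terms the difference was -0.38 ± 0.10 (SE; edgeR, Benjamini-Hochberg adjusted p = 0.00149). The gene span overlaps CLEC3B on the same strand, although no exon of another gene on that strand covers the last 500 bases of the final exon shown above.

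EXOSC5 (ENSG00000077348; chromosome 19, 41386374 to 41397479, minus strand, protein-coding), which encodes RRP46, showed a like decrease with more scatter. It measured 44.5, 48.7, 48.6 and 59.8 CPM with DMSO, and 36.0, 46.2, 38.9 and 35.0 CPM with dTAGV1. Replicate 2 of dTAGV1 reached into the DMSO range. The fitted log2 fold change was -0.38 ± 0.12 (SE; edgeR, Benjamini-Hochberg adjusted p = 0.00779). DMSO replicate 4 was the highest library. Without it the value was -0.29 and no longer passed (edgeR, Benjamini-Hochberg adjusted p = 0.0518).

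EXOSC8 and EXOSC4 were the ring genes that did not pass. EXOSC8 (ENSG00000120699; chromosome 13, 36998816 to 37009613, plus strand, protein-coding), which encodes RRP43, measured 48.1, 37.4, 41.6 and 40.6 CPM with DMSO and 39.7, 42.9, 46.8 and 45.4 CPM with dTAGV1. The groups overlapped across nearly their whole range. The 95% interval of its log2 fold change ran from -0.16 to 0.29, so that a fall like that of EXOSC9 lies outside it. EXOSC4 (ENSG00000178896; chromosome 8, 144078626 to 144080647, plus strand, protein-coding) encodes RRP41. It was counted at 7 to 13 reads a library, or 2.91 ± 0.567 CPM with DMSO and 2.81 ± 0.888 CPM with dTAGV1 (SD, n = 4 per group), and 2.02% of tested genes had as low a mean. Its 95% interval ran from -0.75 to 0.64 on the log2 scale, so a fall like that of EXOSC6 lies outside it. Changes within that interval were not detectable at such low counts.

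In the cap, 1 of 3 genes passed, where 57.9% of all tested genes passed and 28.5% passed as lower. EXOSC2 (ENSG00000130713; chromosome 9, 130693721 to 130704894, plus strand, protein-coding) encodes the RNA-binding subunit RRP4. It measured 49.5, 42.0, 43.5 and 36.1 CPM with DMSO, and 25.2, 36.9, 25.9 and 33.8 CPM with dTAGV1. Only dTAGV1 replicate 2 reached above the lowest DMSO library, replicate 4. Its estimated log2 fold change was -0.48 ± 0.13 (SE; edgeR, Benjamini-Hochberg adjusted p = 0.00294).

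EXOSC1 (ENSG00000171311; chromosome 10, 97436142 to 97446017, minus strand, protein-coding) encodes the cap subunit CSL4. Its level was 44.3, 48.0, 42.4 and 44.3 CPM with DMSO and 46.2, 44.1, 45.7 and 48.5 CPM with dTAGV1, and the groups overlapped. The 95% interval of the log2 fold change was -0.16 to 0.25. EXOSC3 (ENSG00000107371; chromosome 9, 37766978 to 37801437, minus strand, protein-coding), which encodes RRP40, measured 32.2, 24.6, 25.6 and 26.2 CPM with DMSO and 25.5, 28.7, 25.6 and 27.7 CPM with dTAGV1. Apart from DMSO replicate 1, the EXOSC3 libraries of both groups shared 1 narrow range. Its interval was -0.28 to 0.25. The EXOSC3 span overlaps AL138752.2 on the same strand, so its level is less certain. Pseudogenes can also share reads with a gene, which was not examined here for EXOSC3 or the other exosome genes.

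EXOSC10 (ENSG00000171824; chromosome 1, 11066618 to 11099881, minus strand, protein-coding) encodes the nuclear exonuclease RRP6. It measured 98.4, 96.7, 93.4 and 95.5 CPM with DMSO, and 87.9, 66.5, 80.1 and 74.0 CPM with dTAGV1. The DMSO libraries were tightly grouped, and the dTAGV1 libraries were spread more widely but all lower. On the log2 scale dTAGV1 differed from DMSO by -0.32 ± 0.09 (SE; edgeR, Benjamini-Hochberg adjusted p = 0.00407), the smallest fall among the 6 genes that passed.

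**Figure D2:**
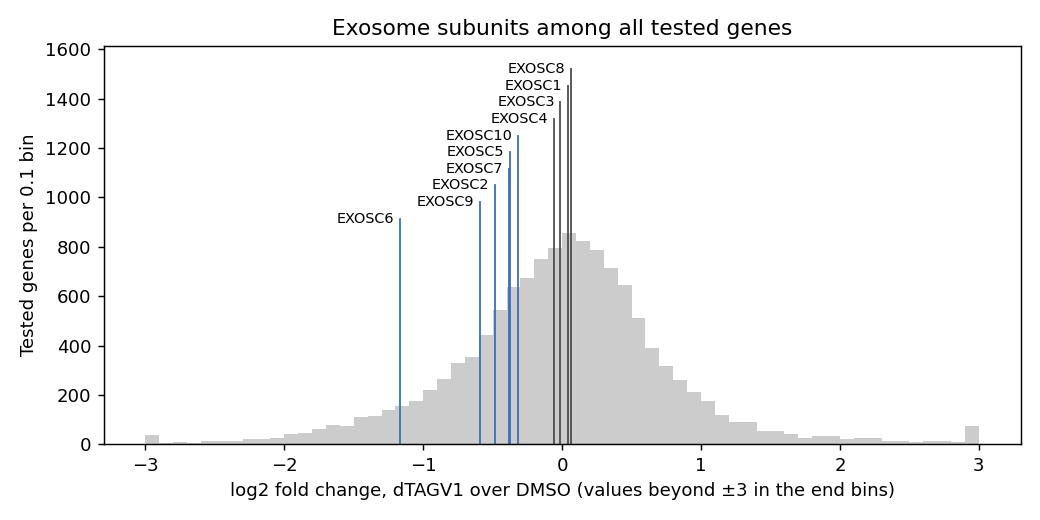
Log2 fold changes of all 12618 tested genes as grey bars of 0.1 width, with a vertical line for each exosome gene (blue: lower at adjusted p under 0.05; dark grey: not passed). EXOSC6 lies at -1.17, apart from the other 9 genes, which lie between -0.59 and 0.06.

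The order of the levels changed with these differences. Since the kit gives a read near the 3′ end of each transcript, CPM were compared between genes without division by length. With DMSO, EXOSC10 and EXOSC9 stood highest at 96.0 ± 2.10 and 95.8 ± 7.94 CPM and overlapped each other. EXOSC6 followed at 73.0 ± 4.97 CPM and overlapped EXOSC7 at 68.0 ± 6.84 CPM. EXOSC5, EXOSC1, EXOSC2 and EXOSC8 formed a run from 50.4 to 41.9 CPM in which each overlapped the next. EXOSC3 at 27.2 ± 3.45 CPM and EXOSC4 were each set below the rest (SD, n = 4 per group). With dTAGV1, EXOSC10 and EXOSC9 remained the highest pair at 77.1 ± 9.09 and 63.4 ± 4.19 CPM, followed by EXOSC7 alone at 52.1 ± 1.61 CPM. EXOSC6 moved from rank 3 to rank 7, at 32.4 ± 5.56 CPM, and there overlapped EXOSC5 above and EXOSC2 below. Its share of the summed exosome reads was 13.4% ± 0.782 with DMSO and 7.80% ± 1.19 with dTAGV1 (SD, n = 4 per group). EXOSC8 made up 7.72% ± 0.684 and 10.6% ± 0.644 of the sum, and EXOSC1 8.25% ± 0.488 and 11.1% ± 0.411. Shares are bound to add up, so the fall of other genes raises those of EXOSC1 and EXOSC8.

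By the root mean square difference of log2 CPM from the DMSO mean over 8 libraries, 3 genes among 9239 with at least 10 CPM had the profile most like that of EXOSC6. These were ANXA3, encoding an annexin, with a log2 fold change of -1.17, SLC30A7, encoding a zinc transporter, with -1.16, and HADH, encoding a mitochondrial fatty acid oxidation enzyme, with -1.21. The differences from EXOSC6 were 0.0944, 0.0996 and 0.103 on the log2 scale. Since the libraries form a DMSO and a dTAGV1 group, this measure depends largely on having a like fold change. A decrease beyond 2-fold past the threshold was seen in 9.23% of all tested genes. Shared regulation of these genes was not tested.

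Reads on the strand opposite to the gene differed widely in number among the 10 genes. EXOSC7 had 0 such reads beside 1813 on its own strand, and EXOSC1, EXOSC2, EXOSC4, EXOSC5, EXOSC6 and EXOSC10 had 1 to 3 each over all 8 libraries. EXOSC8, EXOSC9 and EXOSC3 had 1055, 760 and 172. In GENCODE 29, exons of SUPT20H cover the end of EXOSC8 from the other strand, and exons of CCNA2, the gene for the S-phase and mitotic cyclin A2, cover that of EXOSC9. The span of EXOSC3 overlaps DCAF10 and TRMT10B on the other strand, with no exon of either over its last 500 bases.

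Opposite-strand reads over EXOSC9 were 94, 182, 129 and 114 in the 4 DMSO libraries (replicates 1 to 4) and 71, 42, 47 and 81 in the dTAGV1 libraries (replicates 1 to 4). All dTAGV1 libraries had fewer than any DMSO library. They fell by 1.13 ± 0.17 on the log2 scale (SE; edgeR on opposite-strand counts, Benjamini-Hochberg adjusted p = 2.58e-06), where 48.4% of 3324 genes tested on that strand passed. CCNA2 itself went from 60.6 ± 14.1 to 26.6 ± 6.58 CPM (SD, n = 4 per group), a log2 fold change of -1.17. SUPT20H, across from EXOSC8, passed as higher on its own strand, from 36.9 ± 4.86 to 46.5 ± 4.43 CPM (SD, n = 4 per group). Its log2 fold change was 0.33 (edgeR, Benjamini-Hochberg adjusted p = 0.0176). Over EXOSC8, opposite-strand reads ran from 94 to 141 with DMSO and from 123 to 156 with dTAGV1, and did not pass (log2 fold change 0.20, edgeR, Benjamini-Hochberg adjusted p = 0.23). Those over EXOSC3 were 16 to 29 and 19 to 28 reads, and did not pass either (edgeR, Benjamini-Hochberg adjusted p = 0.993). If strand was ignored, 53.1% of the reads on either strand of EXOSC9, 62.5% of those of EXOSC8 and 25.4% of those of EXOSC10 were not counted to the gene. EXOSC9 and EXOSC10 then still fell, with log2 fold changes of -0.69 and -0.31, and EXOSC8 did not pass, at 0.17.

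**Figure D3:**
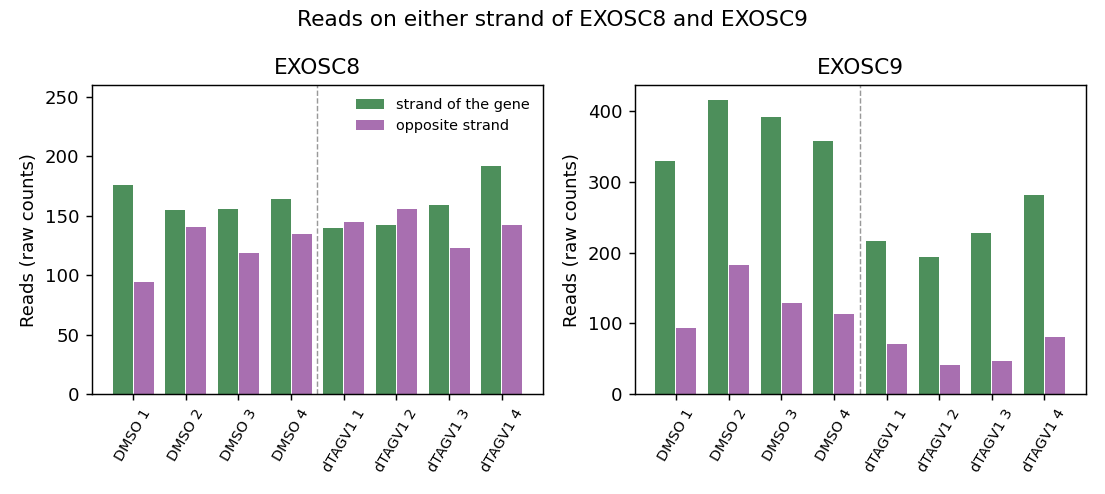
Raw reads in each library on the strand of EXOSC8 and EXOSC9 (green) and on the opposite strand (purple), with the DMSO libraries left of the dashed line and the dTAGV1 libraries right of it. Both strands of EXOSC9 are lower with dTAGV1, while those of EXOSC8 show no such step.

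Of 25 genes listed here as nucleases and cofactors of the exosome, 24 had enough counts for the test. Of these, 13 rose, 4 fell and 7 did not pass (edgeR, Benjamini-Hochberg adjusted p under 0.05). The list was not split by whether a product helps or restrains the exosome. Over all tested genes 57.9% passed, 29.4% higher and 28.5% lower. With library-size scaling in place of TMM, 11 of the 24 rose and 8 fell. Their median log2 fold change was 0.26, beside 0.01 over all tested genes. The nuclease DIS3, which supplies most of the activity of the nuclear core, went from 137, 133, 125 and 137 CPM with DMSO to 185, 171, 173 and 199 CPM with dTAGV1. All dTAGV1 libraries lay above all DMSO libraries, and the log2 fold change was 0.46 ± 0.08 (SE; edgeR, Benjamini-Hochberg adjusted p = 1.35e-05). Its cytoplasmic relative DIS3L fell, from 23.0, 20.7, 17.3 and 17.1 CPM to 11.6, 11.8, 15.9 and 10.9 CPM, with a log2 fold change of -0.64 (SE 0.17, edgeR, Benjamini-Hochberg adjusted p = 0.00218). The 3 nuclease genes thus moved in different directions, with EXOSC10 and DIS3L lower and DIS3 higher.

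All 5 genes listed as nuclear core cofactors passed, 4 higher and 1 lower, where 57.9% of all tested genes passed. C1D and MPHOSPH6 encode small proteins that help EXOSC10 and MTREX join the core, and they moved in opposite directions. C1D measured 13.1, 11.6, 9.87 and 9.89 CPM with DMSO and 22.7, 26.6, 30.05 and 30.3 CPM with dTAGV1, a log2 change of 1.30 ± 0.16 (SE; edgeR, Benjamini-Hochberg adjusted p = 1.38e-07). MPHOSPH6 measured 231, 257, 252 and 247 CPM with DMSO and 122, 150, 125 and 140 CPM with dTAGV1, a log2 change of -0.88 ± 0.08 (SE; edgeR, Benjamini-Hochberg adjusted p = 7.08e-10). In neither gene did the groups overlap. The helicase gene MTREX rose from 209 ± 9.50 to 251 ± 25.4 CPM (SD, n = 4 per group), a log2 fold change of 0.26. Without dTAGV1 replicate 3, its highest library at 289 CPM, MTREX was at 0.18 and no longer passed (edgeR, Benjamini-Hochberg adjusted p = 0.056). NRDE2, whose product binds MTREX, rose from 60.4 ± 1.17 to 95.5 ± 5.58 CPM (SD, n = 4 per group), a log2 fold change of 0.66.

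Both genes listed here for the NEXT adaptor rose, where 29.4% of all tested genes did. The helicase gene MTREX was counted above, with the core cofactors. NEXT brings short-lived nuclear transcripts such as promoter upstream RNAs to the exosome. Its RNA-binding subunit RBM7 went from 44.8, 46.1, 35.2 and 47.0 CPM with DMSO to 122, 124, 108 and 98.9 CPM with dTAGV1. RBM7 had a log2 change of 1.38 ± 0.10 (SE; edgeR, Benjamini-Hochberg adjusted p = 3.49e-11), the highest among these 24 genes, and every dTAGV1 library was far above every DMSO library. The scaffold gene ZCCHC8 had a log2 change of 0.38 ± 0.11 (SE; edgeR, Benjamini-Hochberg adjusted p = 0.00452). RBM7 overlaps AP002373.1 on the same strand.

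In the PAXT group, which directs polyadenylated nuclear RNA to the exosome, 2 of 5 genes rose and 1 fell. Among all tested genes, 29.4% rose and 28.5% fell. PABPN1, the nuclear poly(A)-binding protein, had 8, 9, 14 and 11 reads with DMSO and 25, 23, 20 and 33 reads with dTAGV1, or 2.70 ± 0.734 and 6.93 ± 0.789 CPM (SD, n = 4 per group). Its log2 change was 1.36 ± 0.28 (SE; edgeR, Benjamini-Hochberg adjusted p = 0.000175), and its span is shared with the readthrough gene BCL2L2-PABPN1 on the same strand, so its level is uncertain. RBM26 fell, with a log2 fold change of -0.30 ± 0.07 (SE; edgeR, Benjamini-Hochberg adjusted p = 0.00103). ZFC3H1, the zinc-finger scaffold of PAXT, did not pass, at 0.05.

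Of the 4 cap-bound adaptor genes, which link the nuclear cap-binding complex to exosome adaptors, 1 passed, where 57.9% of all tested genes did. NCBP2, the subunit that contacts the cap, went from 145 ± 15.3 to 257 ± 26.3 CPM (SD, n = 4 per group), a log2 change of 0.82 ± 0.08 (SE; edgeR, Benjamini-Hochberg adjusted p = 1.01e-08). Its partner NCBP1 had a log2 fold change of -0.22 and did not pass (edgeR, Benjamini-Hochberg adjusted p = 0.131). SRRT, which encodes the cap-bound protein ARS2, was at -0.19 and did not pass either, although it passed as lower in 9 of 17 alternative settings. In the TRAMP complex, which adds short tails to nuclear RNA, ZCCHC7 was at -0.23 (edgeR, Benjamini-Hochberg adjusted p = 0.0386) and the polymerase genes TENT4A and TENT4B at 0.29 and -0.12. ZCCHC7 and TENT4A passed here, each close to the threshold, and TENT4B did not. ZCCHC7 lost its call without any of 5 libraries: DMSO replicate 3 or 4, at log2 fold changes of -0.24 and -0.20, or dTAGV1 replicate 1, 2 or 3, at -0.22, -0.19 and -0.24. TENT4A lost it without DMSO replicate 3 or 4, at 0.25 and 0.27, or dTAGV1 replicate 2 or 3, at 0.25 and 0.28. ZCCHC7 also lost its call with DESeq2, at -0.24, and TENT4A with library-size scaling, at 0.22, and with no filter on low counts, at 0.27. For the cytoplasmic SKI complex, which threads RNA into the exosome, SKIC3 rose with a log2 fold change of 0.49. SKIC8 was at -0.20 and did not pass. HBS1L, listed with this complex, rose with 0.25, and its 10 annotated 3′ ends were counted together. HBS1L lost its call without DMSO replicate 1, at 0.21, or dTAGV1 replicate 3 or 4, at 0.20 and 0.22, and also with library-size scaling, at 0.17, and with no filter on low counts, at 0.23. SKIC2, the SKI helicase gene, had 0 to 3 reads a library and was not tested.

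**Figure D4:**
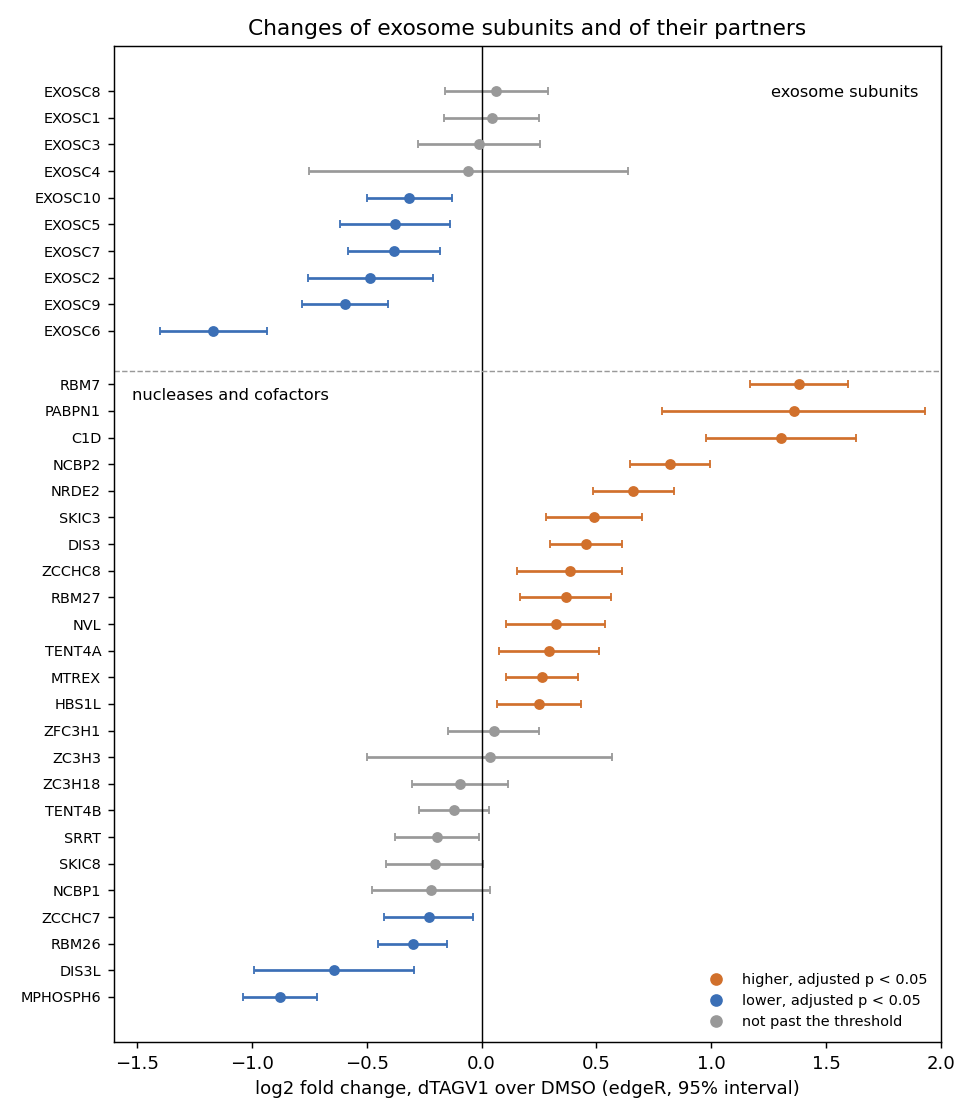
Log2 fold change of each exosome gene (above the dashed line) and of 24 nuclease and cofactor genes (below it), with 95% intervals from edgeR; orange is higher and blue lower at an adjusted p under 0.05, grey did not pass. Above the line the points run from -1.17 to 0.06 and none is orange, and below it they run from -0.88 for MPHOSPH6 to 1.38 for RBM7.

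Promoters of 8 of the 10 genes were matched in RefSeq on GRCh38.p14, as windows of 300 bases around the start; EXOSC1 and EXOSC4 were not. The letters CCAAT, searched on both strands, stood in the windows of EXOSC2, EXOSC5, EXOSC9 and EXOSC10, and in 35.0% of 13422 windows of tested genes. The letters GGGCGG, also searched on both strands, stood in every matched gene but EXOSC9, and in 67.0% of windows of tested genes. EXOSC8 was the 1 gene of the 8 with TATAAA, which 6.01% of windows held. None of the 8 held CCGGAAGT, TTTCGCGC or TTTGGCGC on either strand. A match of letters is a description of the window and not of a bound factor.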

How the data were processed

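Total RNA was extracted with Trizol and made into libraries with the Lexogen QuantSeq forward kit, per the labels' protocols. The authors deposited whole-number read counts per gene for each library, irrespective of strand, on the gene's strand and on the opposite strand. STAR, HTSeq, fastp, FastQC, DESeq2 and build GRCh38 are named in the submitters' processing notes, without versions or roles. The annotation and any removal of PCR copies are not given in the sources used here, so counting limits cover counting error only. The 4 totals of reads given to no gene (56.7% to 62.8% of reads) stayed out of all sums.

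Sense-strand counts of all 8 libraries were tested with edgeR 4.0.16 in R 4.3.3 (filterByExpr, TMM, robust quasi-likelihood F test, Benjamini-Hochberg adjustment over 12618 genes, threshold 0.05). Standard errors are the absolute log2 fold change over the square root of F. Alternatives were DESeq2 1.42.0, limma-voom (limma 3.58.1), other scalings and filters, counts irrespective of strand, a replicate term and leaving out each library. Positions, transcripts and overlaps come from GENCODE 29, which is not stated to be the authors' annotation. The overlaps given here may therefore differ from those under which the reads were counted. Per gene the longest principal protein-coding transcript was used.

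All 10 exosome genes are named. Among the cofactors, DIS3, DIS3L and MTREX, up to 5 largest increases and 5 largest decreases past the threshold, and complexes given whole are named. Members and lists were chosen with earlier results of these data known. The labels number replicates 1 to 4 in both groups but do not say that the numbers pair libraries, so they were not taken as pairs. Deviations of same-numbered libraries correlated at 0.131, -0.0176, 0.0232 and 0.0340. Replicates of a group differed by more than sampling noise (chi-square over degrees of freedom 1.82 to 5.09).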

Additional observations from a re-analysis of the deposited data

How the results depend on the processing

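Over 17 alternatives, 5 to 6 exosome genes passed, all lower, and 14 to 19 of the cofactor genes passed, 10 to 13 higher and 3 to 8 lower. EXOSC6 ranged from -1.26 to -1.09 and EXOSC9 from -0.69 to -0.55. Of 169 alternative values for the 10 exosome genes, 161 kept their direction and side of the threshold. The 1 call lost was that of EXOSC5, at -0.29 without DMSO replicate 4. Genes that had not passed changed sign in 7 values and did not pass in any of them. With library-size scaling EXOSC1 was at -0.030 and EXOSC8 at -0.011. With 1 library left out, EXOSC3 ran from -0.064 (without DMSO replicate 2) to 0.073 (without DMSO replicate 1), and EXOSC4 from -0.26 (without dTAGV1 replicate 2) to 0.052 (without dTAGV1 replicate 4). Among cofactors that had not passed, with library-size scaling ZFC3H1 was at -0.022 and ZC3H3 at -0.039. With 1 library left out they ran from -0.025 (without dTAGV1 replicate 4) to 0.13 (without dTAGV1 replicate 2) and from -0.059 (without dTAGV1 replicate 2) to 0.11 (without dTAGV1 replicate 4). When a mean of 100 counts was required, fewer genes were tested, and 4120 genes passed of 6369. EXOSC4, at 7 to 13 reads a library, was below that mean and not tested. The same held for DIS3L, C1D, PABPN1, ZC3H3 and NUDT21. With the replicate number as a block, 7434 genes, 6 exosome genes and 18 cofactor genes passed; SRRT passed there, at -0.20, and the block changed no other call among the exosome and cofactor genes. SRRT passed in 9 of 17 alternatives, the block included, at -0.27 to -0.20. With library-size scaling TENT4B (-0.20), NCBP1 (-0.29) and SKIC8 (-0.28) passed too; NCBP1 also passed without DMSO replicate 1 (-0.31) and SKIC8 without dTAGV1 replicate 4 (-0.26). In 2 of 4 cases a DMSO library correlated best with its own number, which does not settle whether the replicate numbers pair libraries. Low counts limit EXOSC4, PABPN1, ZC3H3 and SKIC2, which had at most 33 reads in a library.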
